A study of Mus musculus with 10 samples.

Results

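The genes described here are 32 markers of macrophages, read on arrays of cultured mouse B-cell lymphomas. They were listed by gene symbol, and a gene entered with the probe set named for it alone that had the highest mean over the 10 arrays, with no filter on low signals. All 32 had such a probe set, out of 18193 genes named in this way. Their levels differed widely between the lymphomas: 25 of the 32 passed a test for a difference between lymphomas. None passed the test for a difference between cells treated with Adriamycin (ADR, doxorubicin) and untreated cells, although 26 had a higher mean with ADR, and the size and sign of the difference varied from lymphoma to lymphoma.

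Macrophages are phagocytes that engulf dying cells, microbes and antibody-coated particles and break them down in lysosomes filled with lysozyme, proteases and reactive oxygen. They depend on CSF1, which signals through the receptor Csf1r, and on the ETS-family transcription factor PU.1 (gene Spi1), which also acts in B cells. In lymphomas, macrophages are known as cells of the surrounding tissue that clear the many dying tumour cells. Several of these genes are also used by monocytes, dendritic cells, neutrophils or B cells, so that none of them is a strict label of 1 cell type.

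The cells came from the lymph nodes of mice that carry the Emu-myc transgene, in which the immunoglobulin heavy chain enhancer drives Myc in the B lineage, and that lack both copies of Suv39h1, a histone H3 lysine 9 methyltransferase. Every culture, untreated ones included, was Emu-myc;Suv39h1-/-, had been transduced with a Bcl2 retrovirus that also carries puromycin resistance, was selected with puromycin and was grown on irradiated NIH 3T3 mouse fibroblasts. The study asked how ADR, a DNA-damaging drug, changes the transcripts of these Bcl2-protected cells. Each of 5 lymphomas (lymphoma_5783, lymphoma_7890, lymphoma_9250, lymphoma_1032 and lymphoma_4936) gave 1 array of untreated cells and 1 array of cells after 5 days in 0.05 µg/ml ADR, so that each group held 5 arrays. The labels used here give no age of the mice, and their protocols name no sort that would separate lymphoma cells from other cells of the lymph node or from the feeder cells.

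Values are log2 array signals, and a difference of 1 on this scale is 2-fold. Of the 10 array medians, that of ADR-treated lymphoma_1032 was the lowest, at 4.15, and the other 9 ranged from 4.43 to 4.50. The median of the whole table, 4.43, serves below as a mark of a low signal. The B-cell label was borne out on all 10 arrays for the B-cell receptor chains: Cd79b lay between 9.93 and 11.99 and Cd79a between 7.98 and 10.78, and Cd22, an inhibitory B-cell receptor, lay between 8.41 and 10.17. Ms4a1, which encodes CD20, ranged from 7.87 to 11.15 in 4 lymphomas but was at 5.09 untreated and 4.79 with ADR in lymphoma_1032.

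Before treatment, the macrophage markers were high in some cultures and low in others. The highest untreated signal was that of lymphoma_7890 for 17 genes, of lymphoma_1032 for 9, of lymphoma_5783 for 5, of lymphoma_4936 for 1 and of lymphoma_9250 for 0. The lowest was that of lymphoma_4936 for 19 genes and of lymphoma_9250 for 8. Set against each gene's mean over the untreated arrays, the median gene was higher by 1.79 in lymphoma_7890, by 0.46 in lymphoma_1032 and by 0.06 in lymphoma_5783, and deviated by -1.10 in lymphoma_9250 and -1.35 in lymphoma_4936. The same medians over all 18193 genes lay between -0.04 and 0.03. In bulk RNA, more cells that express a gene and more of its RNA per cell cannot be told apart.

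**Figure D1:**
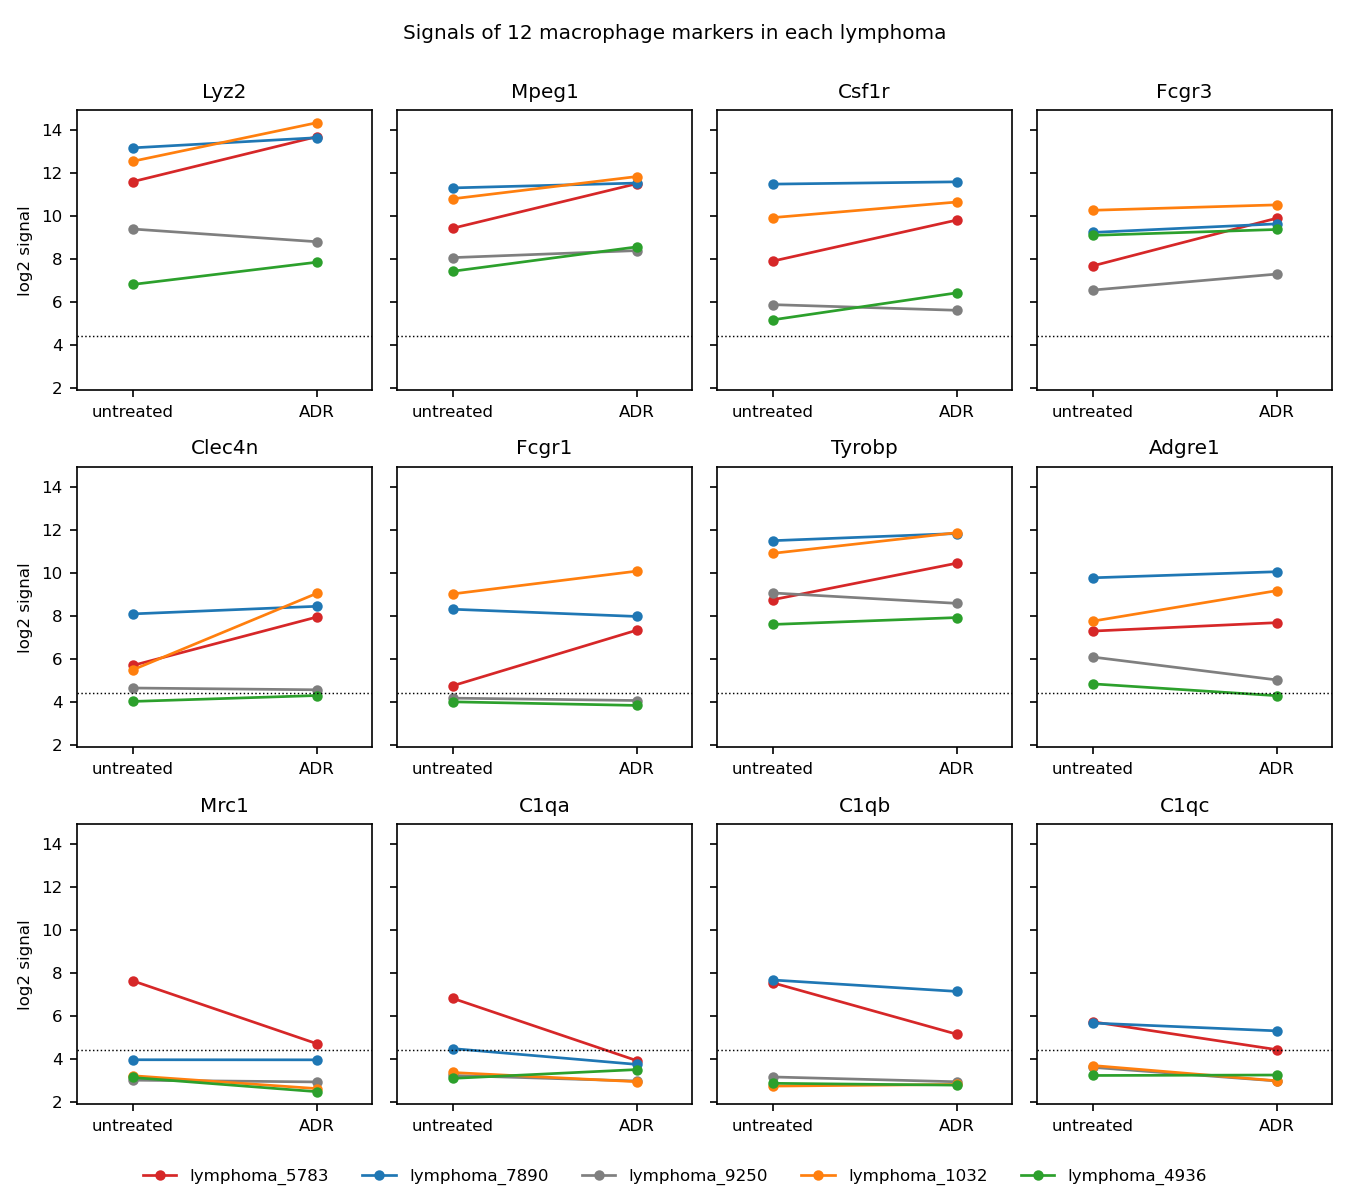
Log2 signal of 12 of the 32 genes in untreated and ADR cells, with a line for each lymphoma and a dotted line at the median of the whole table (4.43). Lyz2, Csf1r and Adgre1 keep much of the order of the lymphomas under both conditions, and Mrc1 and C1qa stand well above the dotted line only in untreated lymphoma_5783.

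The test of levels was an F-test of the lymphoma terms in the limma fit that also holds the treatment, so it sets the differences between lymphomas against the spread that remains within them. At a Benjamini-Hochberg adjusted p below 0.05 it called 25 of the 32 genes (78.1%), against 16.1% of all genes. On at least 5 of 10 arrays 24 markers (75%) and 63.1% of all genes were above the table median; the F-test called 22 of these 24, and 23.2% of all genes above that filter. The lymphoma means, over both treatments, spanned 2-fold or more for 29 genes (90.6%, against 24.4% of all genes) and 16-fold or more for 13 (40.6%, against 1.28%). The median span was 3.73, against 0.61 over all genes. The 7 genes not called were C1qa, Cx3cr1, Ccr2, Cd163, Mertk, Axl and Cd5l. For Ccr2 the probe set tested was flat, while dimmer ones that varied were not in this test. The test speaks of these 5 lymphomas only, since both arrays of a lymphoma come from 1 culture source.

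Fcer1g, the gamma chain that couples Fc receptors to ITAM signalling, had the widest span of the 32, 6.40 between lymphoma means (limma F-test, adjusted p = 0.00025). Its untreated signals, in the order in which the 5 cultures were introduced, were 7.61, 8.94, 4.19, 10.09 and 4.76. With ADR they were 9.17, 9.06, 3.66, 10.57 and 4.96. Lymphoma_7890, lymphoma_1032 and lymphoma_5783 lay at or above 7.61 under both conditions, and lymphoma_9250 and lymphoma_4936 at or below 4.96. All lists of 5 values below follow this order.

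With ADR, 26 of the 32 genes had a higher mean and 6 (C1qa, C1qb, C1qc, Mrc1, Mertk and Cd5l) a lower one, and of all genes 42.9% had a higher mean. The median of the mean differences was 0.36, against -0.03 over all genes. The paired limma fit called 0 of the 32 genes and 0% of the 18193 genes, and the adjusted p of the markers lay between 0.629 and 0.984. An unadjusted p below 0.05 was found for 11 of the 32 (34.4%): Lyz1, Lyz2, Mpeg1, Cybb, Csf1r, Cx3cr1, Clec4n, Fcgr3, Itgam and Apoe were higher with ADR and C1qc was lower. Of all genes, 7.85% had such a p, and 3.05% had it with a higher signal. Only Mpeg1, Cx3cr1 and Fcgr3 were higher in all 5 lymphomas and only Mrc1 was lower in all 5, together 12.5% of the genes, against 8.83% of all genes with 1 sign throughout and 3.61% higher throughout. Without lymphoma_5783 the median was 0.20. Without both lymphoma_5783 and lymphoma_1032, an omission chosen after seeing the data, it was 0.07, with 20 of the 32 genes higher.

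**Figure D2:**
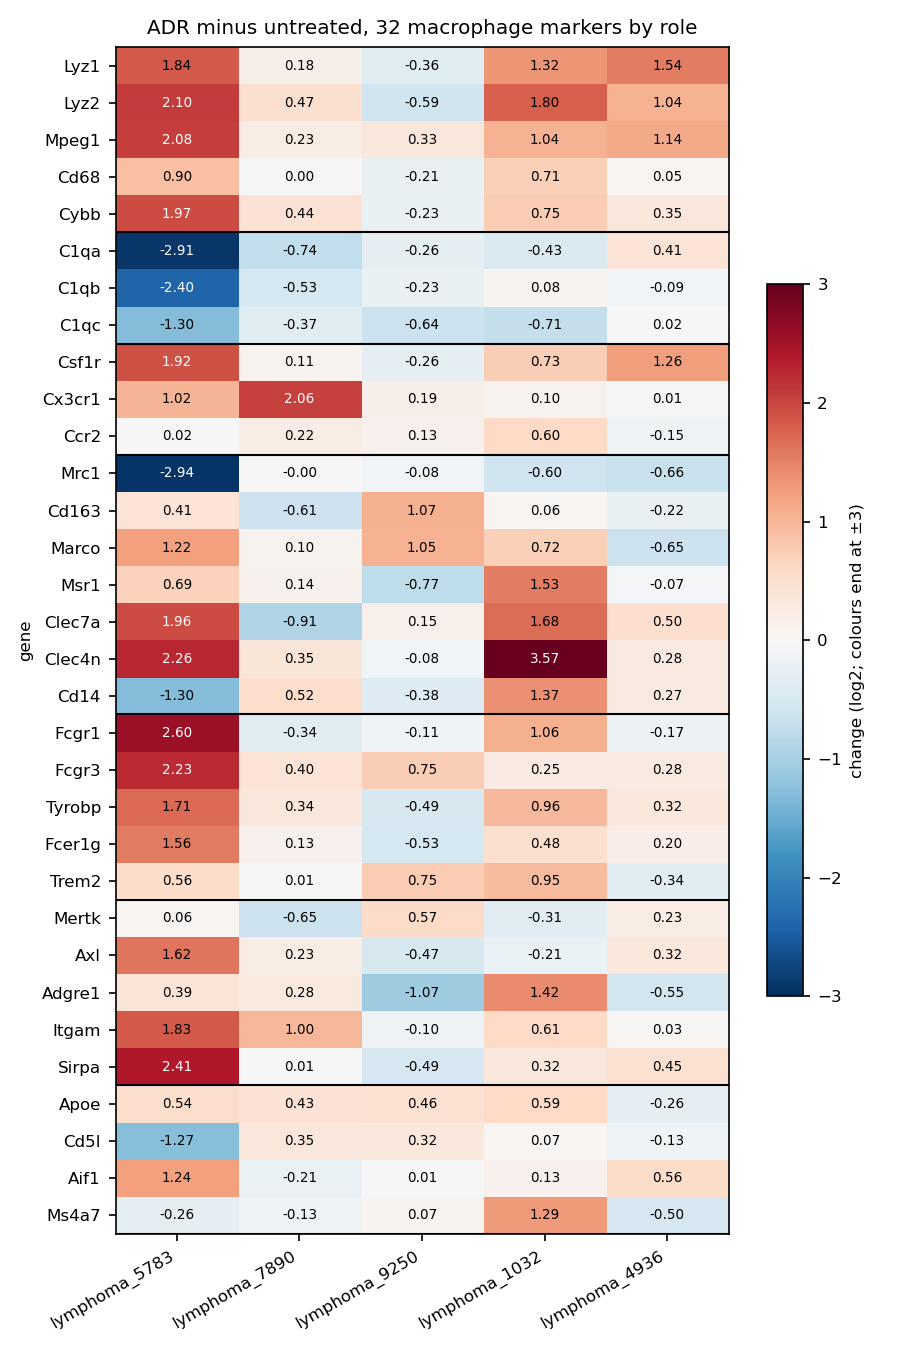
Heat map of the ADR minus untreated log2 difference of all 32 genes in each lymphoma, with the value in each cell, black lines between the groups by role, and colours that end at -3 and 3. In lymphoma_5783 the C1q genes, Mrc1, Cd14 and Cd5l are at least 2-fold lower while 17 other genes are at least 2-fold higher.

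The lymphomas differed in how far the genes moved. In lymphoma_5783 the median difference was 1.12 (-0.0021 over all genes), with 25 genes higher (49.7% of all genes) and 7 lower. There 17 genes were at least 2-fold higher (3.66% of all genes) and 6 at least 2-fold lower (2.33%): C1qa, C1qb, C1qc, Mrc1, Cd14 and Cd5l. Of these, C1qa and Cd5l ended below the table median and C1qc near it. In lymphoma_1032 the median was 0.66 (-0.16 over all genes), with 27 genes higher (35.1%) and 5 lower, 10 at least 2-fold higher (2.39%) and 0 at least 2-fold lower (5.97%). With each array centred on its own median, the value in lymphoma_1032, whose ADR array had the low median, was 0.95. At least 2-fold higher in both of these lymphomas were 6 genes: Lyz1, Lyz2, Mpeg1, Clec7a, Clec4n and Fcgr1, which is 18.8% against 0.55% of all genes. The pair was formed after seeing the data, from the lymphomas with the highest medians of these 32 genes. That choice favours a larger share among the markers, so no conclusion is drawn from it. Clec7a started near or below the table median in both lymphomas. By its dimmer probe set Fcgr1 fell short of 2-fold in lymphoma_5783, with a difference of 0.88.

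The other lymphomas showed little of this. The median was 0.13 in lymphoma_7890, where 22 genes were higher (49% of all genes), only Cx3cr1 was at least 2-fold higher (0.879%) and 0 genes were at least 2-fold lower (0.445%). It was also 0.13 in lymphoma_4936, where 20 genes were higher (52.7%), 0 were at least 2-fold lower (1.06%) and 4 were at least 2-fold higher (1.82%): Lyz1, Lyz2, Mpeg1 and Csf1r. In lymphoma_9250 the median was -0.11, with 13 genes higher (46.6%) and 19 lower. Marco and Cd163 were at least 2-fold higher there (0.89%), Cd163 between signals that were both below the table median (2.30 and 3.37), and Adgre1 at least 2-fold lower (1.9%). Each of these values rests on 1 array per condition and has no replicate check within the lymphoma.

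**Figure D3:**
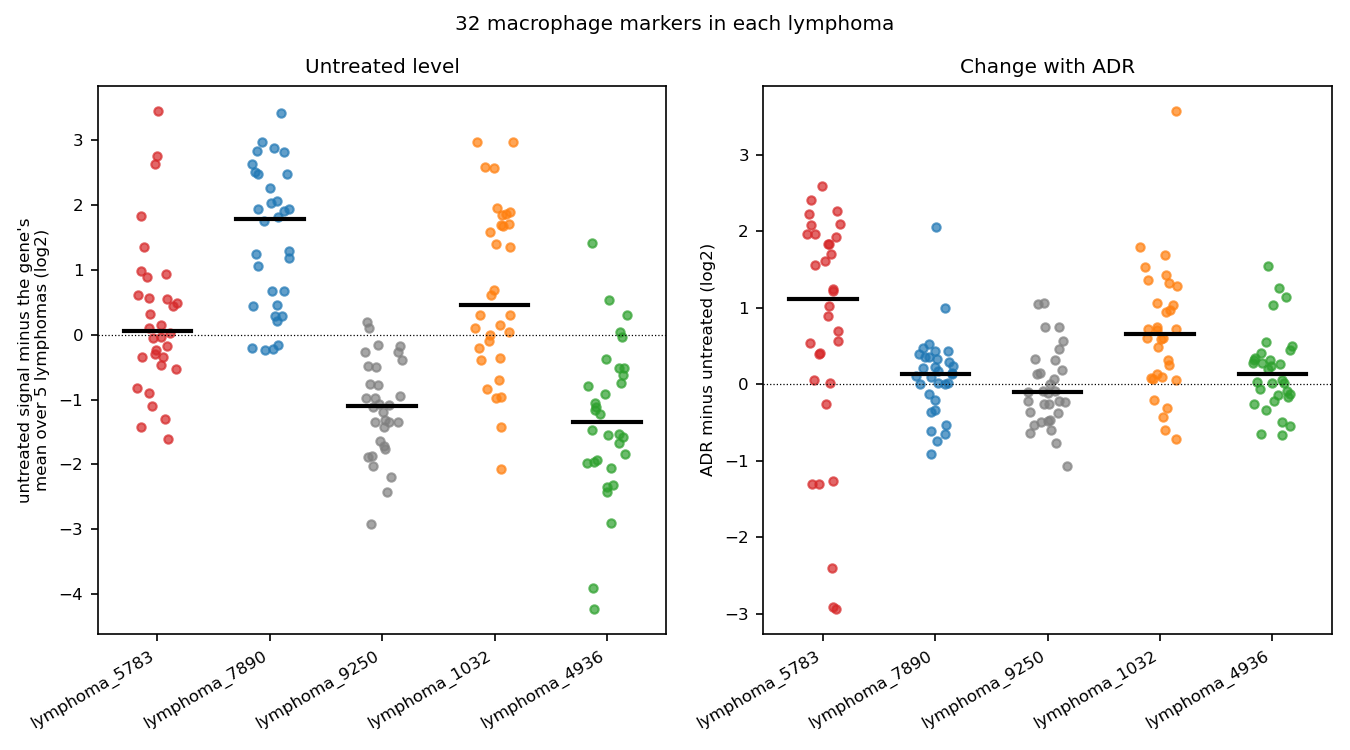
Left, the untreated log2 signal of each of the 32 genes minus its mean over the 5 untreated arrays, and right, its ADR minus untreated log2 difference, with a point per gene and a bar at the median of each lymphoma. The untreated medians run from -1.35 in lymphoma_4936 to 1.79 in lymphoma_7890, and the medians of the differences from -0.11 in lymphoma_9250 to 1.12 in lymphoma_5783.

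The lysosomal and killing genes were Lyz2 and Lyz1, which encode the bacterial cell wall enzymes lysozyme M and P, Mpeg1, which encodes the pore-forming protein perforin-2, Cd68, a lysosomal glycoprotein, and Cybb, the membrane subunit of the phagocyte oxidase that makes superoxide. All 5 had a higher mean with ADR, and all 5 differed between lymphomas by the F-test. Lyz2 had untreated signals of 11.61, 13.19, 9.40, 12.56 and 6.81. With ADR they were 13.71, 13.66, 8.81, 14.36 and 7.85. The difference was 0.96 ± 1.08 (SD, n = 5), with a higher signal in 4 of 5 lymphomas (limma, adjusted p = 0.629). Its size ran from 4.29-fold higher in lymphoma_5783 to 1.51-fold lower in lymphoma_9250, and the groups overlapped.

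Lyz1 and Lyz2 lie next to each other on chromosome 10 as a duplicated pair, and the probe set used for Lyz1 carries the array maker's mark for probes that may bind other transcripts. Its signals ran beside those of Lyz2: 12.40, 13.90, 10.30, 13.31 and 7.20 untreated and 14.24, 14.08, 9.94, 14.63 and 8.74 with ADR. A Lyz1 probe set without that mark ranged only over 2.99 and was above the table median on 1 array. How much of the Lyz1 signal is Lyz1 RNA was not tested.

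Mpeg1 had the smallest unadjusted p of the 32 genes, 0.00541 in the limma fit (adjusted p = 0.629). Its untreated signals were 9.43, 11.32, 8.06, 10.81 and 7.43, and its ADR signals were 11.51, 11.54, 8.39, 11.85 and 8.57. Every lymphoma had the higher signal with ADR, by 0.96 ± 0.75, while the groups overlapped because lymphoma_7890 and lymphoma_1032 were already high untreated. Cd68 was at 8.92, 10.20, 6.52, 10.91 and 8.21 untreated and at 9.81, 10.20, 6.30, 11.61 and 8.26 with ADR, a difference of 0.29 ± 0.48. Cybb had a difference of 0.66 ± 0.82, from 3.91-fold higher in lymphoma_5783 to 1.17-fold lower in lymphoma_9250.

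The C1q genes encode the 3 chains of C1q, the molecule that starts the classical complement pathway and that tissue macrophages secrete. They are neighbours on chromosome 4, and all had a lower mean with ADR. C1qa was at 6.82, 4.47, 3.22, 3.36 and 3.08 untreated and at 3.91, 3.73, 2.96, 2.93 and 3.49 with ADR. C1qb was at 7.55, 7.67, 3.15, 2.72 and 2.85 untreated and at 5.14, 7.14, 2.92, 2.80 and 2.77 with ADR. C1qc was at 5.72, 5.66, 3.60, 3.68 and 3.22 untreated and at 4.42, 5.30, 2.96, 2.97 and 3.24 with ADR. Untreated signals of all 3 genes were above the table median only in lymphoma_5783 and lymphoma_7890, and the other 3 lymphomas stayed below it under both conditions.

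In lymphoma_5783, C1qb was 5.29-fold lower with ADR and C1qc 2.46-fold, the latter ending near the table median. C1qa went from above the table median to below it there and in lymphoma_7890, so that its fold has no clear lower end. In lymphoma_7890, which had similar untreated C1qb and C1qc signals, these 2 genes were 1.45-fold and 1.29-fold lower. Over 5 lymphomas the differences were -0.79 ± 1.26 for C1qa, -0.63 ± 1.01 for C1qb and -0.60 ± 0.49 for C1qc (limma, adjusted p = 0.648, 0.653 and 0.629). The 3 genes failed the filter on low signals, so that the fits with a filter do not hold them.

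Mrc1, the mannose receptor CD206 of tissue-resident macrophages, had the lowest mean difference, -0.86 ± 1.20 (limma, adjusted p = 0.64). It was at 7.64, 3.95, 3.00, 3.21 and 3.12 untreated and at 4.70, 3.95, 2.92, 2.61 and 2.46 with ADR. In lymphoma_5783 it was 7.65-fold lower, and elsewhere the signal was below the table median on every array. In lymphoma_5783 some other genes with an untreated signal above the table median were also lower with ADR. Gas6, a ligand of the receptors Mertk and Axl, went from 6.76 to 4.86. The fibroblast matrix genes Col3a1 and Postn went from 6.85 to 5.02 and from 5.86 to 4.18. Gas6, Col3a1 and Postn were picked for their values, and most genes of their lists had the other sign in this lymphoma. Of the fibroblast list 24 of 29 genes were higher with ADR, with a median of 0.65. Of 45 further macrophage genes, among them Gas6, 30 were higher, with a median of 0.60. The part of Gas6, Col3a1 and Postn in the C1q and Mrc1 values was not tested.

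Among the 32 genes, 6 hold the letters AGGAAGT, a core that PU.1 and other ETS factors can bind, on either strand in the 250 bases before their start. These 6 are Lyz1, Lyz2, C1qb, C1qc, Mrc1 and Fcgr1, out of 24 with a promoter entry in the RefSeq table (GRCm38.p6), or 25%, against 8.8% of 27025 genes. Lyz1 and Lyz2 are a duplicated pair with like windows, so their matches are not independent. The 5 windows below are given 5′ to 3′ on the strand of the gene, each ending at the base before the start. They were chosen because in lymphoma_5783 the lysozyme genes were at least 2-fold higher and C1qb, C1qc and Mrc1 at least 2-fold lower with ADR. Fcgr1, 6.04-fold higher in that lymphoma by the probe set used, also holds the core, and its window is not shown. Capitals mark ACTTCCT, the reverse complement of the core.
Lyz2 (chr10:117282273-117282522, minus strand): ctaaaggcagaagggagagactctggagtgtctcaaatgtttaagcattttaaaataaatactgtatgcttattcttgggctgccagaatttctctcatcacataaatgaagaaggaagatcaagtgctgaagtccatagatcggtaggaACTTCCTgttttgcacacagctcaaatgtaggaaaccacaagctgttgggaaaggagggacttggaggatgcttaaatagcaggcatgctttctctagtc
Lyz1 (chr10:117292869-117293118, minus strand): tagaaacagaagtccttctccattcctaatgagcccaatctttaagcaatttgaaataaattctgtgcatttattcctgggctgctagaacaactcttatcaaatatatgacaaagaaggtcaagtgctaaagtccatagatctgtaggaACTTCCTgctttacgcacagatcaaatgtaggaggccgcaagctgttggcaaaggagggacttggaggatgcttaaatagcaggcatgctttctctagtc
C1qb (chr4:136886201-136886450, minus strand): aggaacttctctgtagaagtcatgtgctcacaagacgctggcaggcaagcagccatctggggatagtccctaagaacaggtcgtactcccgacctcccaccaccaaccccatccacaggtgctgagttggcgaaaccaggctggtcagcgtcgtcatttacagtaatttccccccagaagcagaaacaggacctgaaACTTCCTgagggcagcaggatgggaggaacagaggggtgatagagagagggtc
C1qc (chr4:136892915-136893164, minus strand): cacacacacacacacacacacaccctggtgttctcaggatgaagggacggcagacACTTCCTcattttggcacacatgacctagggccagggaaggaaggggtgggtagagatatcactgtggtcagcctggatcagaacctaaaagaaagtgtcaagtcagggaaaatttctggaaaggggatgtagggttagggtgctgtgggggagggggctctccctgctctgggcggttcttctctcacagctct
Mrc1 (chr2:14229164-14229413, plus strand): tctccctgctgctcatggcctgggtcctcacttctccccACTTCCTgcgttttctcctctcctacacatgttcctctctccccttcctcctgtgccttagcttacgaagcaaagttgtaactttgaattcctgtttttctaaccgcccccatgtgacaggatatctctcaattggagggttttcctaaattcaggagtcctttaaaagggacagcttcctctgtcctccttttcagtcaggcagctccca

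The Lyz1 and Lyz2 windows were alike, with 200 identical bases of 250 (80%), and the motif ended 93 bases before the start in both. In the C1qb window it ended 46 bases before the start, in C1qc 188 and in Mrc1 204. Other windows shared less, at most 130 identical bases of 250 (52%, Lyz2 and C1qb). Of the other motifs searched on both strands, GAGGAAGT, which contains the core, was in 1 of the 24 windows (C1qc; 2.79% of all genes), the AP-1 site TGACTCA in 1 (Cd68; 5.16%), TATAAA in 1 (Apoe; 14.3%) and a motif of the interferon-stimulated response element type in 2 (Cybb and Aif1; 3.46%). A match is a run of letters and not a bound site. Spi1 itself lay between 7.86 and 9.94 on all 10 arrays.

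Csf1r, the receptor for CSF1 and IL-34 on which macrophage survival depends, was at 7.90, 11.49, 5.87, 9.93 and 5.16 untreated and at 9.82, 11.60, 5.61, 10.66 and 6.42 with ADR. The difference was 0.75 ± 0.88, with a higher signal in 4 of 5 lymphomas (limma, adjusted p = 0.629), and the levels differed between lymphomas (limma F-test, adjusted p = 0.00049). Cx3cr1, the receptor of the chemokine fractalkine on monocytes and resident macrophages, was near or below the table median except in lymphoma_7890, where it went from 4.17 to 6.23 with ADR. Its mean difference was 0.67 ± 0.87, with a higher signal in 5 of 5 lymphomas. A second Cx3cr1 probe set, never above the table median, gave 0.016 ± 0.59 and was higher in 3 of 5.

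Ccr2 is the receptor that recruits monocytes to tissue. Its probe set with the highest mean was flat, between 5.55 and 6.47 on the 10 arrays, with a difference of 0.16 ± 0.28. The dimmer Ccr2 probe sets ranged over 5.23, 2.99 and 3.29. Their differences were 1.06 ± 2.39, 0.19 ± 1.15 and 0.64 ± 1.54, so the readings of this gene differ. In lymphoma_5783 the first of the dimmer probe sets was at 3.23 untreated and 8.26 with ADR. The others were also higher there, by 1.37 and 3.29.

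The scavenger and pattern receptors bind modified lipoproteins, fungal sugars and bacterial surfaces. Beside Mrc1 they were Cd163, the haemoglobin scavenger receptor, Marco and Msr1, which are class A scavenger receptors, Clec7a and Clec4n, the lectins Dectin-1 and Dectin-2, and Cd14, the co-receptor for bacterial lipopolysaccharide. Of these 7 genes 6 had a higher mean with ADR and Mrc1 a lower one. Clec4n had the highest mean difference of the 32 genes, 1.28 ± 1.58, and was the only one whose mean reached 2-fold (3.12% of the genes, against 0.214% of all genes). It was at 5.69, 8.10, 4.64, 5.48 and 4.01 untreated and at 7.95, 8.45, 4.56, 9.06 and 4.29 with ADR. The mean rests on lymphoma_1032, 11.91-fold higher, and lymphoma_5783, 4.79-fold higher, while the other 3 lymphomas were between 1.06-fold lower and 1.28-fold higher.

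Clec7a was at 3.98, 7.31, 3.74, 4.50 and 2.97 untreated and at 5.94, 6.40, 3.90, 6.19 and 3.47 with ADR. It was higher in 4 of 5 lymphomas, by 0.68 ± 1.17 over all 5, and lower in lymphoma_7890, which had the highest untreated signal. Msr1 was at 6.17, 7.56, 4.65, 5.77 and 3.95 untreated and at 6.86, 7.70, 3.88, 7.29 and 3.88 with ADR, a difference of 0.30 ± 0.86 that was -0.00082 without lymphoma_1032. Both genes differed between lymphomas by the F-test.

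Cd14 differed in sign between the lymphomas with the largest differences. It was at 7.58, 10.91, 6.05, 9.60 and 5.50 untreated and at 6.28, 11.44, 5.67, 10.97 and 5.77 with ADR. It was 2.47-fold lower in lymphoma_5783 and 2.58-fold higher in lymphoma_1032, and its mean of 0.10 ± 1.00 turned to -0.22 without lymphoma_1032. Marco was highest in lymphoma_7890, at 8.30 untreated and 8.40 with ADR, and lay between 3.89 and 6.21 elsewhere. Cd163 was below the table median on all 10 arrays, with signals from 2.16 to 3.37.

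The Fc receptors bind antibody-coated targets, and Tyrobp (DAP12) and Fcer1g are adaptors that pass signals from such receptors through ITAM motifs. Fcgr1 is the high-affinity IgG receptor, Fcgr3 a low-affinity one and Trem2 a lipid receptor that signals through Tyrobp. All 5 had a higher mean with ADR, and all 5 differed between lymphomas by the F-test. Tyrobp was at 8.76, 11.51, 9.08, 10.92 and 7.61 untreated and at 10.46, 11.85, 8.59, 11.89 and 7.93 with ADR, a difference of 0.57 ± 0.82. Fcer1g, with the values given above, had a difference of 0.37 ± 0.76. In both adaptors lymphoma_9250 alone had a lower signal with ADR.

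Fcgr3 was higher with ADR in all 5 lymphomas, by 0.78 ± 0.83, which was 4.69-fold in lymphoma_5783 and between 1.19-fold and 1.68-fold in the other lymphomas. It was at 7.68, 9.24, 6.55, 10.27 and 9.10 untreated and at 9.91, 9.64, 7.30, 10.53 and 9.38 with ADR. Fcgr1 was 6.04-fold higher in lymphoma_5783 and 2.09-fold higher in lymphoma_1032, and lower in the other 3, with a mean of 0.61 ± 1.24. A dimmer Fcgr1 probe set differed by 0.88 in lymphoma_5783 and 1.25 in lymphoma_1032, with a mean of 0.23 ± 0.79. Trem2 was at 6.53, 7.02, 4.54, 6.27 and 5.45 untreated and at 7.09, 7.03, 5.29, 7.22 and 5.11 with ADR, a difference of 0.39 ± 0.53. A second Trem2 probe set, also above the table median on all 10 arrays, ranged over only 0.47 and gave -0.06 ± 0.24.

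Of the receptors for dead cells and adhesion, Mertk and Axl bind dying cells through Gas6. Adgre1 encodes the mouse macrophage antigen F4/80, Itgam the integrin chain CD11b, and Sirpa the inhibitory receptor that recognises CD47. Mertk was low throughout, at 3.57, 3.92, 3.07, 3.04 and 2.63 untreated and at 3.63, 3.27, 3.64, 2.73 and 2.86 with ADR. Its mean of -0.02 ± 0.48 turned positive, to 0.031 with quantile normalization and 0.0602 with centred arrays. Axl was at 5.24, 4.65, 5.00, 5.10 and 4.01 untreated and at 6.86, 4.88, 4.53, 4.89 and 4.32 with ADR. It was 3.07-fold higher in lymphoma_5783, and its mean of 0.30 ± 0.81 was -0.033 without that lymphoma.

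Adgre1 was at 7.30, 9.78, 6.09, 7.76 and 4.83 untreated and at 7.69, 10.07, 5.02, 9.18 and 4.28 with ADR. It was 2.68-fold higher in lymphoma_1032 and 2.10-fold lower in lymphoma_9250, and the mean was 0.10 ± 0.96. Itgam was at 6.51, 6.96, 5.39, 9.33 and 5.52 untreated and at 8.34, 7.96, 5.29, 9.94 and 5.55 with ADR. It was higher in 4 of 5 lymphomas, by 0.67 ± 0.78 over all 5 (limma, adjusted p = 0.631). Sirpa was 5.33-fold higher in lymphoma_5783 and between 1.41-fold lower and 1.36-fold higher elsewhere. Its other probe sets, also above the table median on all 10 arrays, differed by only 0.41 and 0.35 in lymphoma_5783. Their means over 5 lymphomas were -0.14 ± 0.35 and -0.27 ± 0.73.

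The remaining genes were Apoe, a lipid carrier secreted by macrophages, Cd5l, a secreted scavenger protein of resident macrophages, Aif1, which encodes the actin-binding protein IBA1, and Ms4a7, a tetraspan membrane protein. Apoe had another order of lymphomas than most of the 32 genes, being highest untreated in lymphoma_4936 and lowest in lymphoma_1032. It was at 6.65, 5.82, 5.65, 4.62 and 7.45 untreated and at 7.18, 6.25, 6.11, 5.20 and 7.19 with ADR, a difference of 0.35 ± 0.35 with a higher signal in 4 of 5 lymphomas. Cd5l was at 5.39, 4.91, 3.97, 4.06 and 3.94 untreated and at 4.12, 5.26, 4.28, 4.13 and 3.82 with ADR. Its mean of -0.13 ± 0.66 turned to 0.15 without lymphoma_5783. In that lymphoma Cd5l was 2.41-fold lower and ended below the table median, so that its fold has no clear lower end.

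Aif1 was at 4.65, 7.82, 4.04, 8.32 and 3.92 untreated and at 5.89, 7.61, 4.04, 8.46 and 4.47 with ADR, so that lymphoma_7890 and lymphoma_1032 stood above the other lymphomas under both conditions. Its difference was 0.35 ± 0.57. Ms4a7 was highest in lymphoma_5783 and lymphoma_7890, at 8.93 and 9.13 untreated, against 5.56 to 6.14 in the other lymphomas. With ADR it was 2.44-fold higher in lymphoma_1032 and within 1.41-fold of its untreated level elsewhere, and its mean of 0.09 ± 0.70 was -0.20 without that lymphoma and -0.0051 with array weights.

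The array carried 55 probe sets for the 32 genes. For 18 genes there was 1, and for 14 there were several. In 9 of these 14 all probe sets had a mean difference of the same sign, and in 5 (Axl, Csf1r, Msr1, Sirpa and Trem2) the signs were mixed. The same sign was not always a like size. The second probe sets of Cx3cr1, Marco and Ms4a7 gave only 0.016 ± 0.59, 0.008 ± 0.26 and 0.039 ± 0.12. For Csf1r the probe sets gave differences of 0.75 ± 0.88, 0.37 ± 0.93 and -0.27 ± 0.52. The 3 Cybb probe sets gave 0.66 ± 0.82, 0.52 ± 0.82 and 0.52 ± 0.80, and the 2 Clec4n probe sets 1.28 ± 1.58 and 1.24 ± 1.56. The 3 C1qb probe sets gave -0.63 ± 1.01, -0.60 ± 1.16 and -0.56 ± 0.89.

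**Figure D4:**
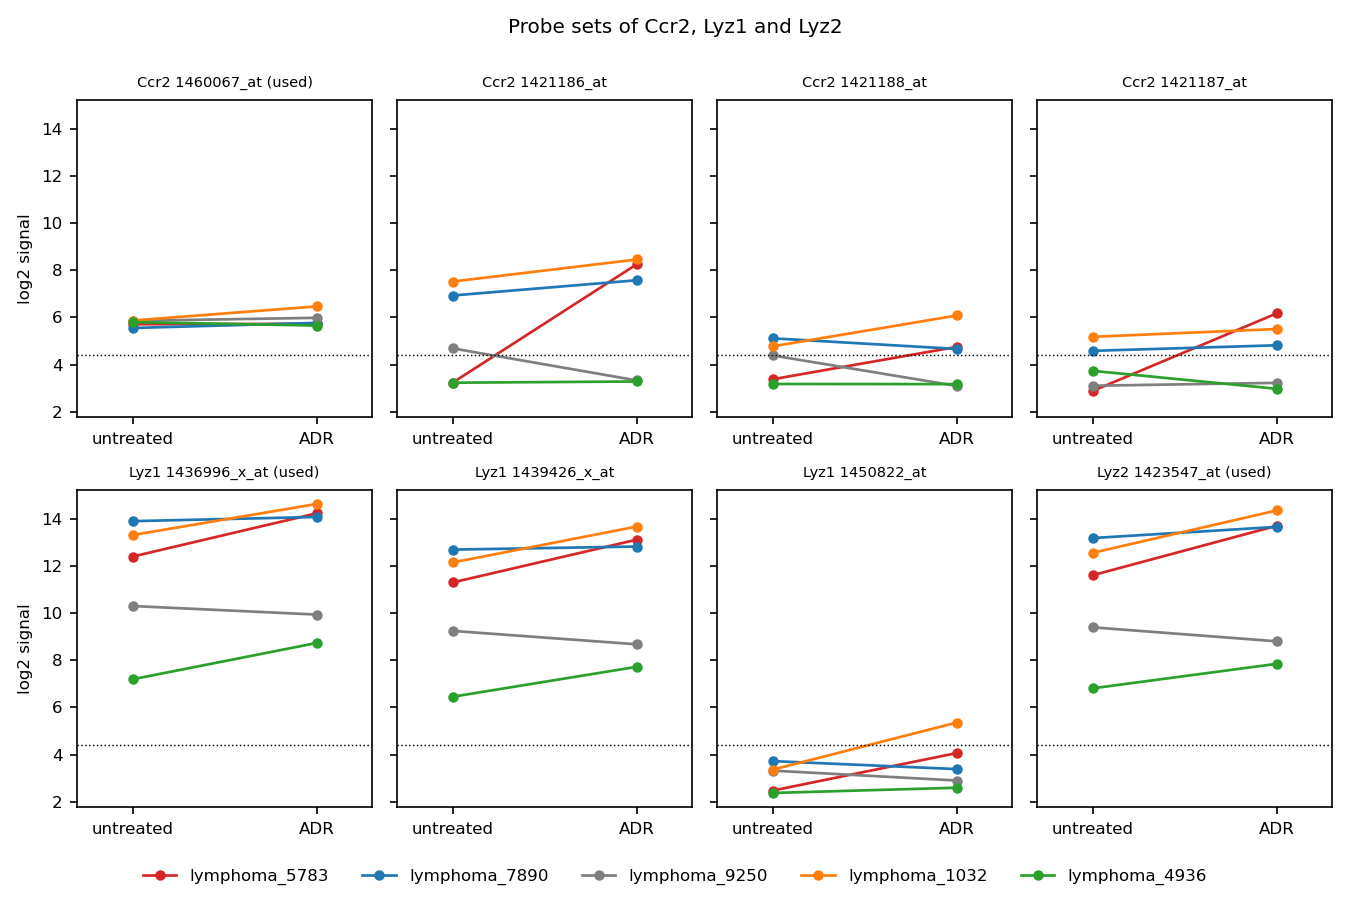
Log2 signal in untreated and ADR cells for the 4 probe sets of Ccr2, the 3 of Lyz1 and the 1 of Lyz2, with a line for each lymphoma and a dotted line at the table median. The Ccr2 probe set with the highest mean is flat while the dimmer ones vary, and the Lyz1 probe sets with the cross-binding mark have the pattern of Lyz2.

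Other genes of the same biology were followed in lists of genes that are not among the 32. Of 45 further macrophage genes 32 had a higher and 13 a lower mean with ADR, with a median of 0.33. Of all genes 42.9% had a higher mean, which is the share to set beside the counts of each list below. Against 7.85% of all genes, 10 of the 45 had an unadjusted p below 0.05 in the limma fit, and 0 passed after adjustment. Their median was 0.77 in lymphoma_1032, 0.60 in lymphoma_5783, 0.20 in lymphoma_7890, -0.0015 in lymphoma_4936 and -0.26 in lymphoma_9250. Mmp12, the macrophage elastase, was higher in 5 of 5 lymphomas by 1.14 ± 0.76, and Ccl6, a chemokine, in 4 of 5 by 1.10 ± 1.15. Il1b, an inflammatory cytokine, had a difference of 0.90 ± 1.28. Between lymphomas the F-test called 30 of these 45 genes, against 16.1% of all genes, and other lists held many such genes too: 16 of 29 fibroblast, 8 of 14 B-cell, 5 of 8 CSF and 7 of 12 ITAM and integrin genes.

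Of 8 CSF ligands and receptors 7 had a higher mean, with a median of 0.29. Csf2rb, the shared chain of the GM-CSF receptor, differed by 0.64 ± 0.95, and Csf1 itself by 0.48 ± 0.47, both higher in 4 of 5 lymphomas. Of 12 ITAM and integrin signalling genes 9 were higher on average, with a median of 0.07, among them the adaptor Lcp2 (0.81 ± 1.04) and Itgb2, the partner chain of CD11b (0.44 ± 0.29). All 4 measured oxidase subunits had a higher mean, with a median of 0.08, and Cyba, the partner of Cybb, was higher in 5 of 5 lymphomas by 0.29 ± 0.27. Of 17 myeloid transcription factors 8 were higher and 9 lower, with Klf4 at 0.94 ± 1.04 and Id3 at -0.70 ± 0.73. The limma test called 0 genes of these lists.

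Markers of other cell types were followed in the same way, and their part in the values of the 32 genes was not tested. The feeder cells are fibroblasts. Of 29 fibroblast genes 23 had a higher mean with ADR, against 42.9% of all genes. Their medians were 0.65 in lymphoma_5783 and 0.31 in lymphoma_1032 (-0.0021 and -0.16 over all genes). Their summed level, as log2 of the summed linear signals, lay between 11.01 and 13.23 untreated and between 11.31 and 13.63 with ADR, and Timp3 and Lum were never above the table median. Fn1, Lox and Acta2 were higher in 5 of 5 lymphomas, by 0.66 ± 0.45, 0.68 ± 0.49 and 0.71 ± 0.63.

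Of 17 neutrophil genes 6 were higher and 11 lower (42.9% of all genes were higher), with a median of -0.07. Only 5 of the 17 passed the filter on low signals. Among those 5, Mmp9 differed by 1.10 ± 0.91 and Mmp8 by 0.95 ± 1.29, each higher in 4 of 5 lymphomas. Lcn2 differed by -0.28 ± 0.80 and Itgb2l by 0.09 ± 0.37. The summed level of the 17 genes was 8.46 to 9.06 untreated in 4 lymphomas and 12.98 in lymphoma_1032. With ADR it was 8.41 to 9.38 in those 4 and 14.05 in lymphoma_1032. S100a8, an abundant neutrophil and monocyte protein, went from 9.08 to 11.43 in lymphoma_1032 and from 3.23 to 5.97 in lymphoma_5783. The granule genes Mpo, Ctsg, Camp and Ngp and the receptor Cxcr2 were below the table median on all 10 arrays, as were S100a9, Cd177 and Stfa2l1.

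Of 14 B-cell genes 6 were higher and 8 lower, near the 42.9% of all genes with a higher mean. Their median was -0.12 (-0.03 over all genes). It was -0.43 in lymphoma_1032, -0.48 in lymphoma_4936 and 0.48 in lymphoma_9250, against -0.16, 0.03 and -0.03 over all genes. The ADR array of lymphoma_1032 was the one with the low median. The summed level of the B-cell genes lay between 13.88 and 15.20 untreated and between 13.29 and 15.32 with ADR. The lowest value of both ranges was that of lymphoma_1032. Dendritic cell genes were split, 7 higher and 7 lower of 14, with summed levels of 10.63 to 12.17 untreated and 10.95 to 11.59 with ADR, and Xcr1 and Cd209a were never above the table median. T-cell genes were 3 higher and 10 lower of 13, with summed levels of 9.09 to 11.64 untreated and 9.22 to 11.23 with ADR, and Cd3g and Cd8b1 were never above it. The limma test called 0 genes of these lists too.

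**Figure D5:**
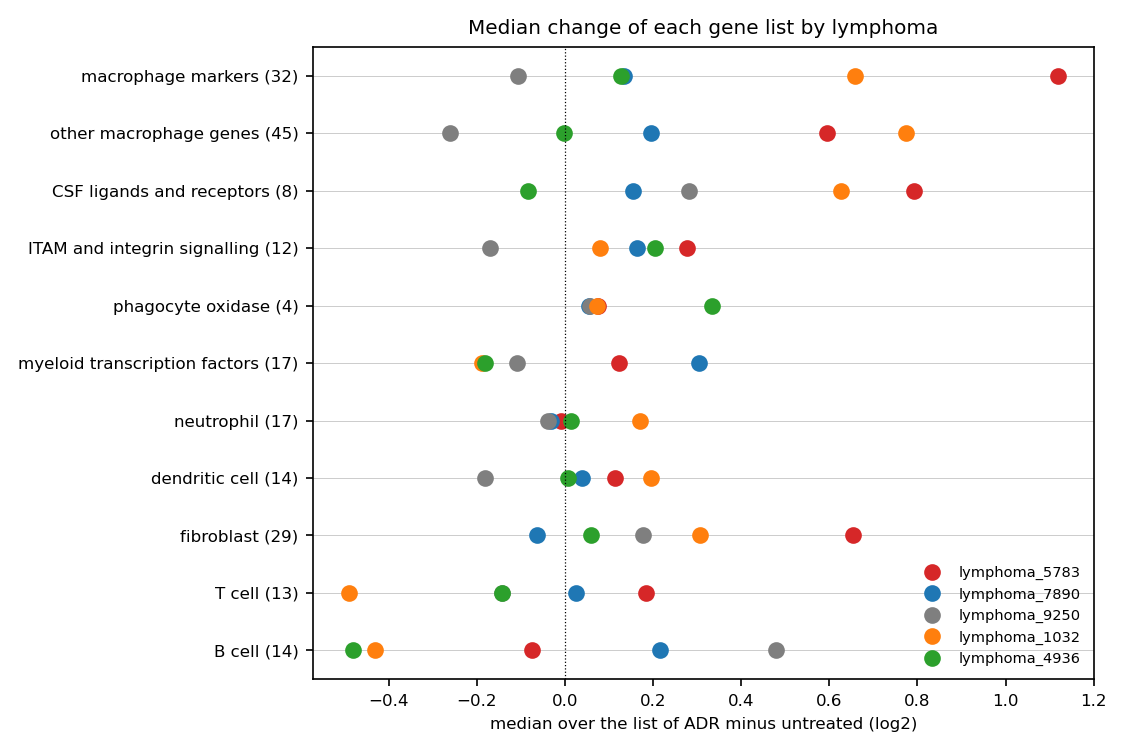
Median over each list of genes of the ADR minus untreated log2 difference, with a point per lymphoma and the number of genes in brackets, for the 32 macrophage markers and 10 other lists. The points of lymphoma_5783 and lymphoma_1032 lie farthest right for the 32 markers, the further macrophage genes, the CSF ligands and receptors, the fibroblast genes and the dendritic cell genes, and some points overlap where medians are close.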

How the data were processed

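Total RNA of 10 cultures (5 lymphomas, untreated and ADR) was measured on Affymetrix mouse arrays. The authors deposited log2 signals, 1 per probe set and array, for which the submitters' processing notes name RMA and Partek. Their versions and settings and the base of the logarithm are not stated there, and from their range the values were taken as log2. Of 45101 probe sets, 34945 had 1 gene symbol, 932 had several and 9160 were unnamed, beside 64 controls. The 32 members and all lists were chosen with earlier results of these data known.

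All 18193 genes were fitted with limma 3.58.1 (R 4.3.3; lmFit, eBayes) with the lymphoma as a block, Benjamini-Hochberg adjustment over all genes, a threshold of 0.05 and two-sided p. The lymphoma numbers in the titles pair the arrays. Across genes, deviations from the group means correlated at 0.45 within the pair of lymphoma_5783, the lowest, and between 0.65 and 0.72 within the other pairs. Between arrays of different lymphomas the correlation was at most 0.20. No batch is named in the labels. The numbers are taken as separate lymphomas. The p-values of the ADR test measure only the spread of the difference between them. Those of the F-test set differences in level against the spread that remains within lymphomas. The number of arrays limits the precision.

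Values on all arrays are given for the 20 genes named by rule and for the widest range and the largest mean differences; Lyz1, Fcgr3 and Aif1, and S100a8, Spi1 and the B-cell genes given for their levels, were added with their values known. From each other list up to 4 genes with the largest mean difference above the filter were eligible. Alternatives were omission of each lymphoma, array weights, a trended robust prior, centring, quantile normalization, averaged probe sets, filters at the table median and 70th percentile, and no block. Tables were made with Python 3.11.15, pandas 2.3.3 and Biopython 1.88, and plots with matplotlib 3.10.9.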

Additional observations from a re-analysis of the deposited data

Results flagged for a closer look

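In groups of 5, a value stands apart where its gap to the nearest of the others exceeds 0.71 of the whole range (Dixon's 95% value). Of 96 sets examined (untreated signal, ADR signal and difference of each gene) 7 stood apart. The rule gives about 1 in 20 for independent sets of normal values. These sets share the same lymphomas, and each difference is formed from signals also examined. The 7 therefore cannot be compared with 1 in 20. Lymphoma_5783 supplied 5 of the 7. There C1qb had a difference of -2.40, against -0.53 to 0.08 in the other lymphomas. Mrc1 had an untreated signal of 7.64 (3.00 to 3.95 in the others) and a difference of -2.94 (-0.66 to -0.0039). Fcgr3 had a difference of 2.23 (0.25 to 0.75), and Axl an ADR signal of 6.86 (4.32 to 4.89). Marco had an untreated signal of 8.30 in lymphoma_7890 (4.38 to 5.11 in the others). Apoe had a difference of -0.26 in lymphoma_4936 (0.43 to 0.59 in the others).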

How the results depend on the processing

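The count of the 32 genes called between ADR and untreated was 0 in every planned setting, and the lowest adjusted p of any of them in any setting was 0.252, for C1qc in limma without lymphoma_4936. With no replicate block the unpaired limma fit also called 0, and the median difference was 0.36. The block changed no call. The median lay between 0.29 (mean of all probe sets) and 0.57 (filter at the 70th percentile), between 0.20 and 0.46 without 1 lymphoma, and at 0.35 with probe sets marked x_at or s_at left out, which was chosen after seeing the data. In lymphoma_5783 the median was 1.66 with the filter at the table median and 1.83 at the 70th percentile, because these filters leave fewer genes, 24 and 17, and drop the C1q genes and Mrc1. The F-test called 21 to 26 of the 32 genes without 1 lymphoma, where 7.17% (without lymphoma_1032) to 15.1% of all genes were called. Fitted and adjusted over the 11472 genes above the table median filter alone, it called 22 of 24 markers and 26.9% of those genes. Over the 7945 genes above the 70th percentile filter it called 17 of 17 and 39.6%. In the other settings it called 25 or 26 of 32 (14% to 21.1% of all genes). Of 393 values of single genes under the alternatives 13 changed sign, in 8 genes. Many of the 393 could not change. With no block, the trended prior or a filter, the mean difference of a gene stays as in the main fit. The same holds for averaged probe sets in the 18 genes with 1 probe set. The 13 are therefore no measure of how stable the signs are. Mertk was 0.031 with quantile normalization and 0.0602 with centred arrays, and Ms4a7 -0.0051 with array weights. Without 1 lymphoma the ranges were -0.033 to 0.49 for Axl, -0.25 to 0.15 for Cd5l, -0.22 to 0.45 for Cd14, -0.17 to 0.14 for Mertk, -0.089 to 0.33 for Cd163, -0.00082 to 0.57 for Msr1, -0.24 to 0.39 for Adgre1 and -0.20 to 0.24 for Ms4a7. Their cause was not tested. Cd163 and Mertk were below the table median on all 10 arrays.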
